A study of Homo sapiens with 3 samples.

Results

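The genes described here are the numbered zinc finger genes, those named ZNF with a number, that were expressed in all 3 xenograft tumors of the study. A gene was a member when its log2 FPKM (fragments scaled to gene length and library depth, on the log2 scale) was above 1 in each tumor. By this rule there were 117 members among the 496 numbered zinc finger genes listed, or 23.6%. They made up 1.2% of the 9748 genes of any kind that met the same level, out of 29689 genes in all. The tumors were grown from SUM-149, a human TNBC cell line, placed with Matrigel in the mammary fat pads of female Nu/Nu mice, which lack T cells. Mice received vehicle, the CDK2 inhibitor dinaciclib (CDK2i) or the EZH2 inhibitor EPZ6438 (EZH2i), and tumors of the treated mice were taken after 10 days. The sample labels name EPZ6438, while the study's description of its SUM-149 xenografts names GSK343 as the EZH2i, so the compound behind the EZH2i values is not certain. The comparisons ask how blocking CDK2 or EZH2 changes the expression program of the tumor. Each group had 1 library, so no value has a replicate, no p-value was computed, and differences between tumors cannot be told apart from differences between treatments. The sources used here give neither the number of mice behind a library nor a step that separated mouse reads. In bulk RNA a smaller number of cells of a type cannot be told apart from less RNA per cell.

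Most numbered zinc finger genes encode C2H2 zinc finger proteins, the largest class of human transcription factors. Each finger is a short fold in which a pair of cysteines and a pair of histidines hold a zinc ion, and a row of fingers reads a row of DNA bases. Many of these proteins carry a KRAB domain, which recruits the corepressor TRIM28 and the methyltransferase SETDB1 to write H3K9 trimethylation, often on retrotransposons. Others carry a SCAN domain, through which they pair with each other, or fingers alone. A smaller number have the name without being DNA-binding factors, among them the actin-associated LIM protein ZNF185 and the ubiquitin ligase ZNF598, which senses collided ribosomes. Many lie in clusters on chromosome 19 that arose by gene duplication.

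The repeated finger is the feature that the name of the family stands for, and it also makes the genes similar in sequence. The following sequences code for the first finger that is followed by the standard linker to the next, in 5 of the 6 members with the largest falls in CDK2i, in the member with the largest rise in EZH2i and in ZNF91, a repressor of SVA retrotransposons. They were read from the GRCh37 genome, 84 bases each, on the coding strand, 5′ to 3′. Capitals mark the codons of the 2 cysteines and the 2 histidines that bind zinc.
ZNF133 (chr20:18296729-18296812, + strand, exon 7): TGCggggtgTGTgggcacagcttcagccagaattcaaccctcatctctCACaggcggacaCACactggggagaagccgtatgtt
ZNF394 (chr7:99091677-99091760, − strand, exon 3): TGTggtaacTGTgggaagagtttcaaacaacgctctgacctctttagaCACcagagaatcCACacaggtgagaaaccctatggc
ZNF3 (chr7:99669420-99669503, − strand, exon 6): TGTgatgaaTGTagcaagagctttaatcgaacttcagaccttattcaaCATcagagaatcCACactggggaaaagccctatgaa
ZNF791 (chr19:12738743-12738826, + strand, exon 4): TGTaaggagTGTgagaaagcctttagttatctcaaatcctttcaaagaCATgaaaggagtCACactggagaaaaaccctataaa
ZNF121 (chr19:9677270-9677353, − strand, exon 4): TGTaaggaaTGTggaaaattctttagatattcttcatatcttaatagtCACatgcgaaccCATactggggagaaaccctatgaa
ZNF141 (chr4:366827-366910, + strand, exon 4): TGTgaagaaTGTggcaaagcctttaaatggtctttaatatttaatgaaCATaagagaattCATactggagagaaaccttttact
ZNF91 (chr19:23544896-23544979, − strand, exon 4): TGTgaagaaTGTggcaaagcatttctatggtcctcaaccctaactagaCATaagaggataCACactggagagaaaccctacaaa
All 7 stretches lie in the last exon of their transcript. Over the 21 pairs, between 43 and 64 of the 84 bases were identical, with a median of 61.9%, and the most alike were ZNF141 and ZNF91 at 76.2%. GC content ran from 31% in ZNF141 to 57.1% in ZNF133. Although single fingers are alike, most members shared little longer sequence with other genes. For 82 of the 117, under 5% of the 50-base words of the transcript were found in another gene and under 5% of the exon bases lay in the exons of another coding gene.

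Of the 496 numbered genes, 215 passed log2 FPKM 1 with vehicle, 121 under CDK2i and 235 under EZH2i. The CDK2i value therefore decided most of the membership. Among the 88 genes above the level in 2 tumors only, 86 were left out for the CDK2i value, 2 for the EZH2i value and 0 for the vehicle value. Another 44 genes reached the level in 1 tumor and 247 in none. Of all the numbered genes, 71 were listed at −9, the code that stands for an FPKM of 0, in at least 1 tumor and 12 in all 3. The members nearest the threshold were ZNF675 (1.23 in vehicle, 1.00 in CDK2i, 1.89 in EZH2i), ZNF204P (1.36, 1.03, 1.17) and ZNF791 (2.70, 1.04, 2.98). Just outside it were ZNF574 (2.05, 0.99, 1.64), ZNF544 (2.48, 0.98, 3.05) and ZNF343 (2.05, 0.97, 2.19). For all 6 except ZNF204P, whose values lay close together, the EZH2i level was more than 0.5 above the CDK2i level on the log2 scale. Because the rule reads the same 3 columns that the comparisons use, counts and medians over the members are descriptions, and they are given beside the same figures for all 9748 expressed genes.

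Members were not a random draw of the family. Of 282 coding numbered genes with a KRAB motif, 11% were members, against 43% of 193 without one. On chromosome 19, 11.2% of 224 coding numbered genes were members, against 35.5% of 251 elsewhere. Coding members had a median of 7 C2H2 fingers and a transcript GC content of 52.7%, and coding genes outside the rule had 11 fingers and 42.3%. The members are thus the part of the family with fewer KRAB domains, fewer fingers and more GC. KRAB motifs were found in 31 members and SCAN motifs in 6, by a search with fixed letters in the translated transcript that can miss diverged domains. No C2H2 finger was matched in 9 members, and 3 members, ZNF204P, ZNF271 and ZNF767, are not annotated as protein-coding. The members lay on 21 chromosomes, with 25 on chromosome 19 and 17 on chromosome 7.

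Zinc finger genes were expressed at moderate levels. Their median log2 FPKM was 2.87 with vehicle (range 1.23 to 6.07), 2.27 under CDK2i (1.00 to 6.51) and 3.05 under EZH2i (1.17 to 5.78). On the linear scale these medians are an FPKM of 7.3, 4.82 and 8.29. The medians over all 9748 expressed genes were higher, at log2 FPKM 3.54, 3.37 and 3.76. Above log2 FPKM 3 were 54 members in vehicle, 32 in CDK2i and 60 in EZH2i. The shares of all expressed genes above it were 63.8%, 58.8% and 70.9%, also lowest in CDK2i. CDK2i gave the lowest of the 3 values in 80 members (68.4%), against 44.6% of all expressed genes.

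**Figure D1:**
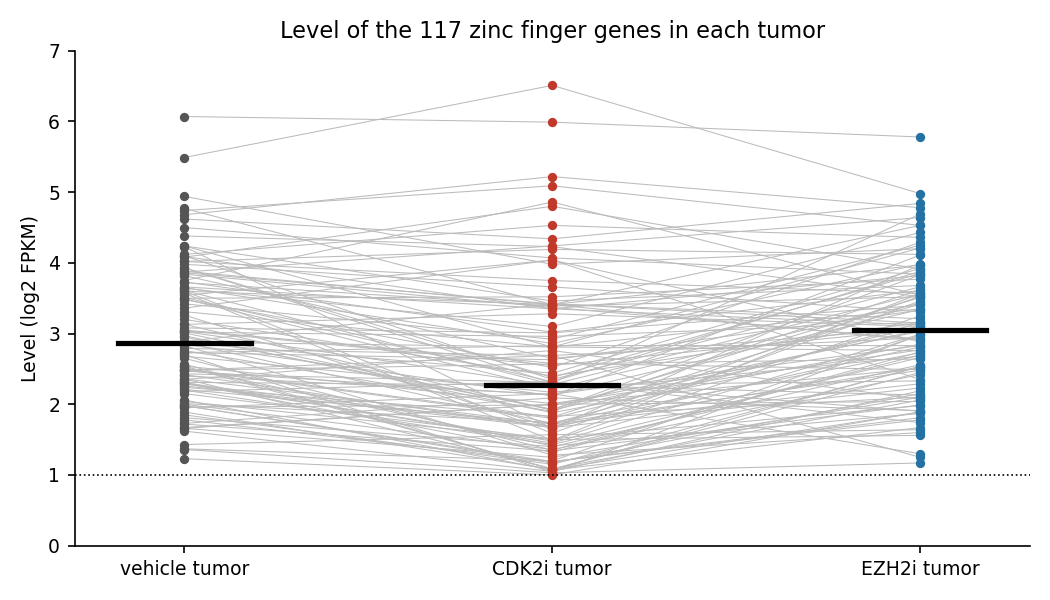
Level (log2 FPKM) of each of the 117 members in the vehicle, CDK2i and EZH2i tumors, 1 library each. Points are genes, gray lines join the same gene, black bars are the medians (2.87, 2.27 and 3.05), and the dotted line is the level of 1 that the rule required.

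The highest mean levels were those of ZNF692, ZNF385A, ZNF316, ZNF598, ZNF384, ZNF768, ZNF664 and ZNF580. ZNF692 stood at log2 FPKM 6.07 with vehicle, 5.99 under CDK2i and 5.78 under EZH2i. Its changes from vehicle, −0.07 and −0.29, were small against those of most members. ZNF385A, an RNA- and DNA-binding protein that p53 induces, was at 5.49, 6.51 and 4.98, so that the CDK2i tumor had the highest level of any member. ZNF384, a transcription factor known from fusion genes in leukemia, was at 4.62, 4.34 and 4.84. ZNF598 was at 4.68, 5.22 and 4.78, and ZNF316 at 4.74, 5.09 and 4.53. ZNF768, at 4.94, 3.98 and 4.20, had the lowest CDK2i change of these 8 genes, −0.97, and none of the 8 was past fold 2 except ZNF385A.

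The counting error behind these values was small for most members. With the depth recovered from the steps of 1 fragment in weakly expressed genes (16.8, 19.1 and 17.5 M fragments for vehicle, CDK2i and EZH2i) and annotated transcript lengths, a member rested on a median of about 552 fragments in vehicle, 421 in CDK2i and 545 in EZH2i. The lowest estimate was 49 and the highest 4729. The 95% counting intervals below are exact binomial (Clopper-Pearson) intervals on the ratio of fragments. They cover counting error only and not the spread between tumors, and the gene lengths that the authors used are not given in the sources used here.

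With CDK2i most zinc finger genes were below their vehicle level. The median change was −0.50 on the log2 scale (0.707-fold), with 93 members lower and 24 higher. Over all expressed genes the median was −0.08, and 55.7% were lower and 44.2% higher. Taking a fold change above 2 as called, 25 members (21.4%) fell and 2 rose, while among all expressed genes 7.38% fell and 2.37% rose. With the added condition that the higher value of the pair exceed log2 FPKM 3, which 55 members met, 15 fell and 2 rose. Of all 6632 genes that met it, 8.07% fell and 3.27% rose. Rescaling the libraries moved every change by between −0.15 and 0.17 and so left the members 0.42 below the median expressed gene. Under all scalings tried, 83 members were lower, 18 were higher, 20 were past fold 2 lower and 0 past fold 2 higher. Of all expressed genes, between 42.6% and 66.7% were lower, depending on the scaling. Between 4.65% and 10.2% of them were past fold 2 lower and between 1.64% and 3.94% past fold 2 higher.

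**Figure D2:**
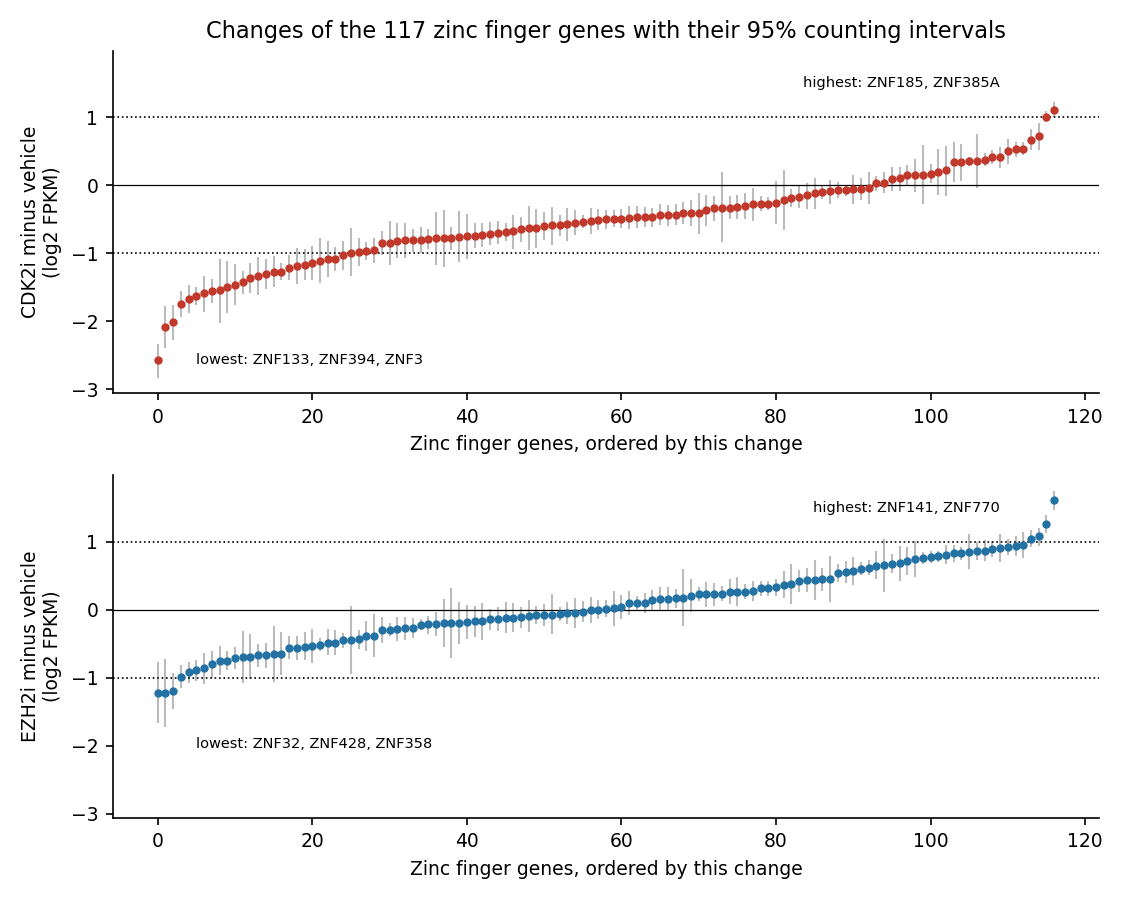
Change in log2 FPKM from the vehicle tumor for each of the 117 members, ordered by size, in CDK2i (upper panel) and EZH2i (lower panel). Gray bars are 95% counting intervals, which hold no spread between tumors, and dotted lines mark a fold of 2. In CDK2i 25 members lie below the lower line and 2 above the upper one, and in EZH2i 3 and 4.

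Since the rule kept only genes still above the level in CDK2i, the same comparison was made for numbered zinc finger genes chosen on the EZH2i tumor alone, which enters neither side of it. Genes listed at −9 in any tumor were left out, and this choice was added after the data were seen. Of these 234 genes, 207 (88.5%) were lower in CDK2i than in vehicle, 103 (44%) were past fold 2 lower and 2 past fold 2 higher. The median change was −0.88. All 11858 genes chosen in this way had a median of −0.14, with 13.3% past fold 2 lower and 2.87% higher. The difference between zinc finger genes and other genes was thus wider when the CDK2i value did not take part in the choice. With a mean above log2 FPKM 1 as the rule, 187 numbered genes had a median of −0.76, and 67 of them (35.8%) were past fold 2 lower, against −0.11 and 10.9% for all 11109 genes that met it.

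**Figure D3:**
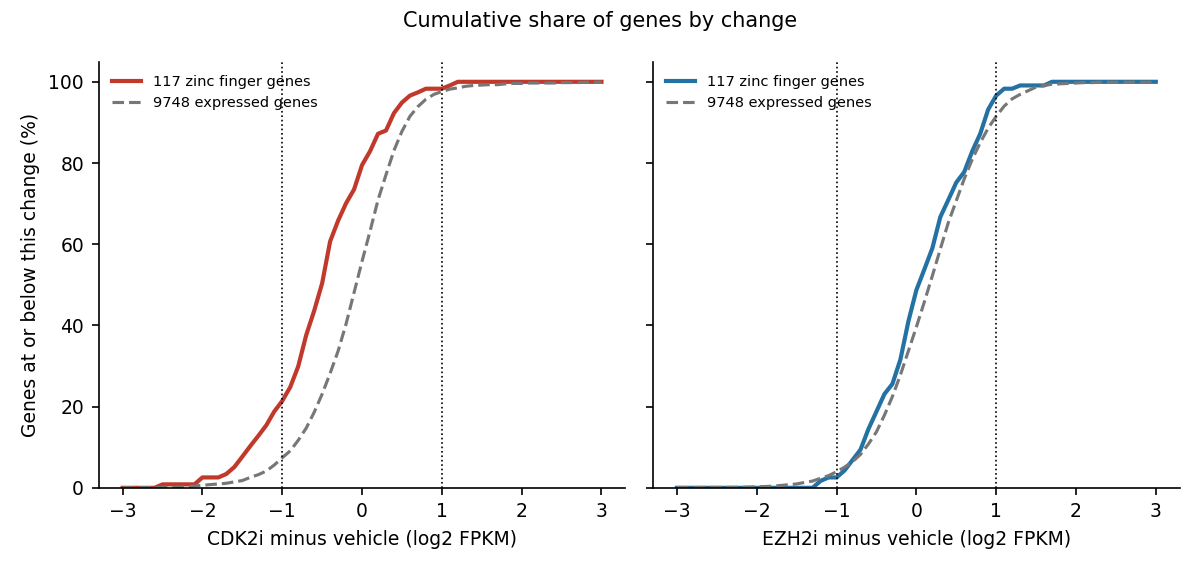
Percent of genes at or below each change in log2 FPKM, for the 117 members (solid) and the 9748 expressed genes (dashed), in CDK2i (left) and EZH2i (right) against vehicle. Dotted lines mark a fold of 2. The CDK2i curve of the members lies to the left of the dashed curve (medians −0.50 and −0.08), and the EZH2i curves lie close together (0.02 and 0.16).

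The deepest fall in CDK2i was that of ZNF133, a KRAB zinc finger repressor (chromosome 20 of GRCh37, 18268927 to 18297640, + strand). Its level was log2 FPKM 4.23 with vehicle, 1.66 under CDK2i and 3.97 under EZH2i. The CDK2i change was −2.57 (counting interval −2.83 to −2.33), a 5.95-fold decrease, and 0.0821% of expressed genes had a lower one. ZNF394 (chromosome 7, 99071500 to 99102480, − strand) was at 3.57, 1.49 and 3.57, a change of −2.08 in CDK2i and 0.00 in EZH2i. ZNF3 (chromosome 7, 99661656 to 99680171, − strand) was at 3.60, 1.59 and 3.46, a CDK2i change of −2.01. In these genes the CDK2i tumor stood alone, and the vehicle and EZH2i levels lay within 0.26 of each other. ZNF672 (chromosome 1, 249132409 to 249143716, + strand) changed from 4.10 to 2.35 and ZNF791 (chromosome 19, 12721732 to 12744654, + strand) from 2.70 to 1.04. ZNF121 (chromosome 19, 9671005 to 9695180, − strand) was at 3.93, 2.30 and 4.69, lowest in CDK2i and highest in EZH2i. Its CDK2i change of −1.63 rested on about 1788 fragments in vehicle, the most of these 8 genes. ZNF212 and ZNF282, neighbors on chromosome 7, changed by −1.59 and −1.55. ZNF282 was first described as a repressor that binds the long terminal repeat of HTLV. ZNF394 shares 13.7% of its exon bases with ZNF789 on the opposite strand, and ZNF3 shares 18.8% with ZSCAN21. Strand use in the counting is not given in the sources used here, so reads in these overlaps cannot be assigned.

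Only 2 members rose past fold 2 in CDK2i, and both encode proteins with few or no classical fingers. ZNF185, the LIM protein (chromosome X, 152066611 to 152142025, + strand), was at log2 FPKM 3.75 with vehicle, 4.86 under CDK2i and 3.54 under EZH2i. Its CDK2i change was 1.11 (counting interval 1.01 to 1.22). ZNF385A (chromosome 12, 54762917 to 54785082, − strand) changed by 1.01 (0.93 to 1.09). Neither passed fold 2 when libraries were set to the same FPKM sum after removal of ribosomal protein and mitochondrial genes. The next largest increases were 0.72 for ZNF580, 0.67 for ZNF219, a transcription factor that works with SOX9, 0.53 each for ZNF598 and ZNF117, 0.50 for ZNF358 and 0.41 for ZNF664, none of them past fold 2. Markers of the epithelial cells also moved, as all 8 epithelial genes on a fixed list were higher in CDK2i, by a median of 0.84, and their summed FPKM was 6480, 15400 and 6210 in vehicle, CDK2i and EZH2i. Their part in the results for zinc finger genes was not tested.

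Promoters were compared because most members were lower in CDK2i, and 3 of the 8 members with the largest falls, ZNF133, ZNF3 and ZNF121, are shown as examples. The 250 bases before the RefSeq start are printed here (GRCh38.p14, coding strand, 5′ to 3′), with ZNF185 as the member that rose most. Capitals mark matches to the motif letters listed after them.
ZNF133 (chr20:18288277-18288526, + strand): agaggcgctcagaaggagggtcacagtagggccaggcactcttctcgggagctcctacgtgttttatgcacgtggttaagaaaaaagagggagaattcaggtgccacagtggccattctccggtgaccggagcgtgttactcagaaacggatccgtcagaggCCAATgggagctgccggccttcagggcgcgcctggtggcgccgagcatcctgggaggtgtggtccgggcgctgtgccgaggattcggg
ZNF3 (chr7:100081724-100081973, − strand): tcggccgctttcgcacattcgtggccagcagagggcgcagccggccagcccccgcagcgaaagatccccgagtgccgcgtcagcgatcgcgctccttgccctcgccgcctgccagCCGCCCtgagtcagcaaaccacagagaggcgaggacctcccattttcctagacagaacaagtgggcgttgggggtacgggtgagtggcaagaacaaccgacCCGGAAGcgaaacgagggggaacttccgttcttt
ZNF121 (chr19:9584505-9584754, − strand): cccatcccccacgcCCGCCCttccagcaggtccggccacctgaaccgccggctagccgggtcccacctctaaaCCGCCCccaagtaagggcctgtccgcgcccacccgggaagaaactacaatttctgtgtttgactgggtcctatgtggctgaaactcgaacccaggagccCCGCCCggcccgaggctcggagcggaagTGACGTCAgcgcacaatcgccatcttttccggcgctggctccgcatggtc
ZNF185 (chrX:152914182-152914431, + strand): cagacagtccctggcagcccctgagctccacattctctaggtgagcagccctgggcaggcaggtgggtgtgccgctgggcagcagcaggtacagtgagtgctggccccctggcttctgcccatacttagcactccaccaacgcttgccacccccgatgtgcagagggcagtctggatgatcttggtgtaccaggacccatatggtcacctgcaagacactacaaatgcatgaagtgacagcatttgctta
Over the 300 bases from 250 before to 50 after the start, these promoters held 20, 26, 24 and 4 CG dinucleotides in the order shown, so the ZNF185 window stood apart as poor in CG. A window was at hand for 95 of the 117 members, with a median GC content of 64.3% and 26 CG dinucleotides, close to the 66% and 27 of 7436 expressed genes. Of 5 motifs searched on both strands, none of which contains another, the ETS core CCGGAAG was in 37.9% of member promoters, 20.6% of expressed genes and 10.7% of all 27305 promoters. Among the 22 members past fold 2 lower in CDK2i with a window, 27.3% held it. The GC box GGGCGG was in 71.6% of members, 73.1% of expressed genes and 44.6% of all promoters. The CCAAT box, searched as CCAAT, was in 34.7%, 36.4% and 35.7%, and the TATA box TATAAA in 3.16%, 5.16% and 12%. The cyclic AMP response element TGACGTCA was in 5.26% of members and 3.48% of expressed genes. Of the same 22 members past fold 2 lower, 86.4% held the GC box and 45.5% the CCAAT box. The cyclic AMP response element was in 9.09% of the 22 and the TATA box in 0%. A match describes the letters in the window and is no evidence of binding.

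In the EZH2i tumor zinc finger genes were spread to both sides of the vehicle level. The median change was 0.02, with 60 members higher, 56 lower and 1 equal, whereas 60.4% of all expressed genes were higher, 39.5% lower and their median was 0.16. Past fold 2, 4 members rose (3.42%, against 8.47% of all expressed genes) and 3 fell (2.56%, against 3.96%). The sign of the median turned with the scaling, from −0.19 with each library centred on its median expressed gene to 0.27 with equal summed FPKM. With the higher value above log2 FPKM 3, 3 of 66 members rose and 1 fell, against 8.93% and 4.42% of 7414 genes. Past fold 2 were 2 higher and 8 lower of all 117 members with centring, against 3.99% and 6.74% of all expressed genes. With equal summed FPKM there were 18 and 0, against 16.7% and 2.02%. The median of the members was 0.14 below that of all expressed genes. A scaling adds the same amount to every change, so this difference cannot move with it. Under all scalings tried, 47 members were higher and 34 lower. Of all expressed genes, between 25.8% and 53.1% were lower, depending on the scaling. Both inhibitor tumors were compared with the same vehicle library, so the changes in CDK2i and EZH2i are not independent of each other.

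The largest rise in EZH2i was that of ZNF141, a KRAB zinc finger gene (chromosome 4, 331603 to 378657, + strand). It was at log2 FPKM 1.37 with vehicle, 1.20 under CDK2i and 2.98 under EZH2i, a change of 1.61 (counting interval 1.47 to 1.75) or 3.04-fold. ZNF770 (chromosome 15, 35270542 to 35280488, − strand) was at 2.85, 2.12 and 4.11, with a change of 1.27 (1.13 to 1.40). These 2 were past fold 2 under each scaling. ZNF106, an RNA-binding protein, was at 1.96, 1.99 and 3.03, and ZNF24, a SCAN zinc finger repressor of VEGF, at 2.87, 2.44 and 3.92, and both rose, by 1.08 and 1.05. Near the threshold but not past it were ZNF623 (0.96), ZNF621 (0.94), ZNF655 (0.93) and ZNF195 (0.91).

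Of the members that fell in EZH2i, ZNF428 (chromosome 19, 44111376 to 44123781, − strand) was at 2.48 with vehicle, 2.69 under CDK2i and 1.25 under EZH2i. Its change of −1.22 had a wide counting interval of −1.73 to −0.72, since it rested on about 109 fragments in vehicle, and 32.1% of its exon bases overlap SRRM5. ZNF358 was at 3.54, 4.04 and 2.35, highest in CDK2i and lowest in EZH2i, a change of −1.19 (−1.46 to −0.93). ZNF32 (chromosome 10, 44139308 to 44144329, − strand) was at 2.83, 1.28 and 1.60, which is a CDK2i change of −1.54 beside an EZH2i change of −1.22. It was the 1 member past fold 2 lower in both tumors (0.855%, against 0.841% of all expressed genes). None of these 3 EZH2i falls passed fold 2 under every scaling. ZNF750, a factor of epidermal differentiation, was at 3.88, 3.41 and 2.90, a change of −0.98 in EZH2i, and was followed by ZNF865 (−0.92), ZNF579 (−0.88), ZNF524 (−0.86) and ZNF581 (−0.80).

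The changes in EZH2i ran with the GC content of the transcripts, and those in CDK2i did not. Across the 117 members, which are not independent replicates and share the same libraries, the Spearman correlation between the change and GC content was −0.763 in EZH2i and 0.0152 in CDK2i. Across the 9070 other expressed genes with an annotated transcript it was −0.572 and 0.0143. The 40 members with a GC content under 45% had a median EZH2i change of 0.65, with 37 higher and 3 lower. The 41 members between 45% and 60% had a median of 0.00, and the 36 at 60% or more of −0.52, with 33 lower and 3 higher. For all expressed genes in the same ranges the medians were 0.57, 0.10 and −0.31. Thus the spread of the members in EZH2i followed their base composition, as it did in other genes. The CDK2i medians of the same 3 groups of members were −0.49, −0.59 and −0.44. Transcript length correlated with the EZH2i change at 0.561 in members and 0.508 in other genes.

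**Figure D4:**
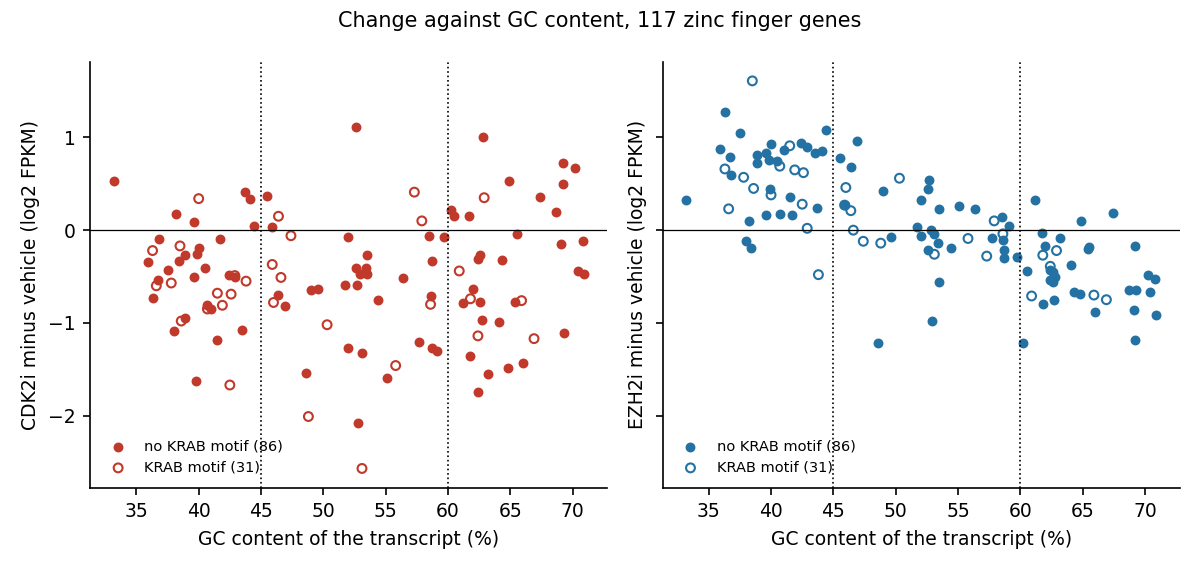
Change in log2 FPKM from vehicle against the GC content of the annotated transcript for the 117 members, in CDK2i (left) and EZH2i (right). Open circles are the 31 members with a KRAB motif, and dotted lines mark 45% and 60%. The EZH2i changes go down from the left to the right (Spearman correlation −0.763), and the CDK2i changes do not (0.0152).

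With the trend over GC content and length that was fitted in other expressed genes removed, the median of the members was −0.13 in EZH2i, against 0.02 in the annotated genes as a whole. The change expected from the trend alone ran from −0.69 to 0.92 over the members. After the correction 0 members were past fold 2 higher in EZH2i (against 1.97% of annotated genes) and 3 lower (2.56%, against 2.71%). The rises of ZNF141, ZNF770, ZNF106 and ZNF24 thus passed fold 2 without the correction only. So did the falls of ZNF428 (−0.72 after it) and ZNF358 (−0.71). The 3 lower members were ZNF577 (−1.20), ZNF750 (−1.12) and ZNF32 (−1.12). In CDK2i the corrected median was −0.49, against 0.03 in annotated genes. Past fold 2, 24 members were lower (20.5%, against 5.07% of annotated genes) and 2 higher (1.71%, against 2.83%). What gave rise to the trend was not tested.

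Members with a KRAB motif had a median CDK2i change of −0.68, and 26 of the 31 were lower. Of the 31, 7 (22.6%) were past fold 2 lower. For the 86 members without the motif the median was −0.47, with 67 lower, 18 (20.9%) past fold 2 lower and 2 past fold 2 higher. The shares past fold 2 lower were thus alike with and without the motif, beside 7.38% of all expressed genes. The 6 members with a SCAN motif were all lower in CDK2i, with a median of −0.51 and 1 (16.7%) past fold 2. By the number of fingers, the medians were −0.33 for the 27 members with 0 to 3 fingers, −0.54 for the 58 with 4 to 9 and −0.71 for the 32 with 10 or more. Lower in CDK2i were 59.3%, 86.2% and 84.4% of these groups, so that the members with the fewest fingers were near the 55.7% of all expressed genes. Past fold 2 lower were 11.1%, 27.6% and 18.8%, against 7.38% of all expressed genes. In EZH2i the members with and without a KRAB motif had medians of 0.10 and −0.01. The sign of the EZH2i medians changed with the scaling.

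Beside the planned split on and off chromosome 19, chromosome 7 was singled out for description. The 17 members on chromosome 7 had a median CDK2i change of −0.81, and 8 of them (47.1%) were past fold 2 lower, against 6.98% of all 430 expressed genes of that chromosome, whose median was −0.11. A stretch of about 3 Mb near the end of the long arm, chosen with the values known, held 8 of these members, with a median of −1.12. It also held 5 of the 8 falls past fold 2 on the chromosome. The 18 other expressed genes of the stretch had a median of −0.24 and 0 past fold 2. ZNF786 (−1.46), ZNF282 (−1.55), ZNF212 (−1.59), ZNF777 (−1.14) and ZNF775 (−1.11) fell, and ZNF767 (−0.75) was not past fold 2. ZNF862 was higher in CDK2i (0.41), as was ZNF783 (0.10), whose sign changed with the scaling (−0.05 to 0.27). The 25 members on chromosome 19 had a CDK2i median of −0.55 and the 92 members elsewhere −0.50.

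Runs of 3 or more members with starts under 500 kb apart formed 8 clusters with 36 members. In the largest, on chromosome 19 from 55987984 to 56672262, lay ZNF628, ZNF579, ZNF524, ZNF865, ZNF784, ZNF580, ZNF581, ZNF787 and ZNF444. In EZH2i all 9 were lower than in vehicle, with a median of −0.69 (8 of 9 with equal summed FPKM). Of all 604 expressed genes of chromosome 19, 71.2% were lower in EZH2i, with a median of −0.25, and the GC content of the 9 transcripts was 61.8% to 70.9%, a range where most expressed genes were lower (76.8% of those at 60% or more). Their CDK2i changes ran from −1.49 to 0.72. ZNF580 and ZNF581, which overlap on the + strand, had CDK2i changes of 0.72 and −1.36, and 15.6% and 24.9% of their exon bases are shared, so reads of the pair may be split between them. Another cluster on chromosome 19, from 8574562 to 9785776, held ZNF414, ZNF558, ZNF317, ZNF121 and ZNF562, and all 5 were lower in CDK2i, by a median of 0.78 on the log2 scale, with 4 higher in EZH2i. Of all expressed genes of chromosome 19, 47.2% were lower in CDK2i and 28.6% higher in EZH2i. On chromosome 18 ZNF397, ZNF271 and ZNF24 were each lower in CDK2i and higher in EZH2i, with medians of −0.43 and 0.90. Both directions were also found in 40.2% of members and 31.4% of all expressed genes. ZNF768, ZNF688 and ZNF668 on chromosome 16 were lower in both tumors, with medians of −0.97 and −0.70. Lower in both were 38.5% of members and 24.3% of all expressed genes. The directions in these last 2 clusters held under each scaling.

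**Figure D5:**
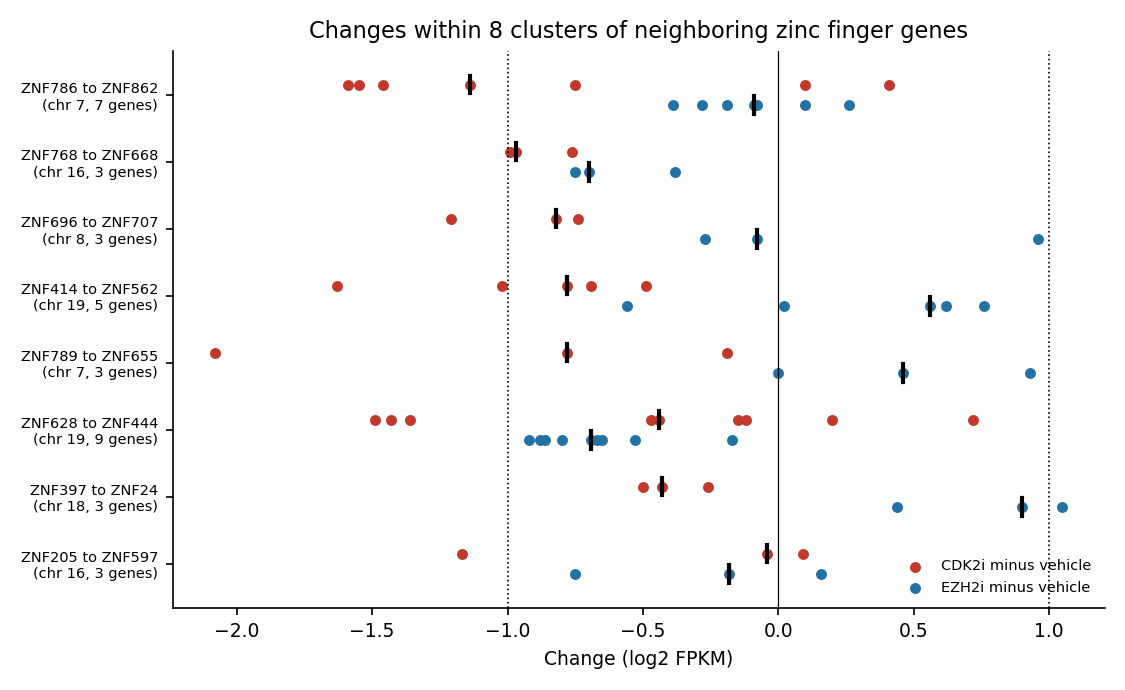
Change in log2 FPKM from vehicle in CDK2i (red) and EZH2i (blue) for the members of the 8 clusters of neighboring zinc finger genes, named by their first and last gene. Points are genes, black ticks are cluster medians and dotted lines mark a fold of 2. The cluster from ZNF786 to ZNF862 has the lowest CDK2i median (−1.14), and the 9 genes from ZNF628 to ZNF444 are all below 0 in EZH2i.

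Of a list of 36 better known numbered zinc finger genes, 22 were members. In CDK2i 4 of the 22 fell past fold 2 and 1, ZNF185, rose. Of all 117 members 21.4% fell and 1.71% rose, and of all expressed genes 7.38% and 2.37%. ZNF217, a breast cancer oncogene of 20q13, was at log2 FPKM 3.01 with vehicle, 1.92 under CDK2i and 3.83 under EZH2i, a change of −1.08 for CDK2i beside 0.83 for EZH2i. ZNF622, a maturation factor of the large ribosomal subunit, was at 3.61, 2.28 and 3.56, a CDK2i change of −1.33. ZNF687, which binds chromatin with ZNF592 and ZMYND8, was at 2.65, 1.35 and 2.70 (−1.30), whereas its partner ZNF592 was at 3.08, 3.01 and 3.40 (−0.07). The members of that complex thus differed in CDK2i. ZNF330, a nucleolar protein, was at 3.51, 2.32 and 3.88 (−1.19). Not past fold 2 in CDK2i were ZNF146 (−0.95), made of fingers alone, ZNF652 (−0.81), ZNF335 (−0.79), a subunit of a histone H3K4 methyltransferase complex, ZNF91 (−0.60), ZNF326 (−0.54), ZNF638 (−0.50), ZNF395 (−0.47), ZNF131 (−0.41), ZNF609 (−0.41) and ZNF644 (−0.34), a partner of the H3K9 methyltransferases G9a and GLP. Closer to the vehicle level were ZNF207 (−0.10), a kinetochore protein that binds BUB3, and ZNF706 (0.17). In EZH2i 1 of the 22, ZNF24, passed fold 2, while 8.47% of all expressed genes rose past it and 3.96% fell. The other 14 genes of the list were not members. Among those left out by their CDK2i value, so that it is the lowest by the rule itself, ZNF274 was at 2.44, 0.74 and 2.48, ZNF281 at 2.22, 0.86 and 3.20, ZNF143 at 1.25, 0.31 and 2.06, and ZNF703, another breast cancer oncogene, at 1.80, 0.94 and 1.70.

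The EZH2i and CDK2i tumors were also compared directly. The median difference of the members, EZH2i minus CDK2i, was 0.59 (0.29 over all expressed genes), with 88 higher (75.2%, against 64.9% of all expressed genes) and 29 lower (24.8%, against 35.1%) in EZH2i. Past fold 2, 41 members were higher in EZH2i (35%, against 16.4% of all expressed genes) and 5 lower (4.27%, against 5.27%). With the higher value above log2 FPKM 3 there were 28 and 4 of 64 members, against 17.5% and 6.53% of 7394 genes. Centring each library gave 22 and 9 of all 117 members, against 6.81% and 11.6% of all expressed genes. Equal summed FPKM gave 45 and 5, against 19.5% and 4.45%. Of 215 numbered genes chosen on the vehicle tumor alone, the median was 1.14 and 118 (54.9%) were past fold 2 higher in EZH2i. All 11251 genes chosen in that way had a median of 0.35, with 22.3% past fold 2 higher.

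KRAB zinc finger proteins work through TRIM28, SETDB1 and heterochromatin proteins. Of the 19 such genes on a fixed list 0 passed fold 2 in CDK2i, with a median of −0.12. Of all expressed genes 7.38% were past fold 2 lower and 2.37% higher in CDK2i. TRIM28 was at log2 FPKM 7.02 with vehicle, 7.11 under CDK2i and 6.97 under EZH2i. SETDB1 was at 2.25, 1.41 and 2.93. In EZH2i 4 of the 19 rose past fold 2 (21.1%, against 8.47% of all expressed genes), and the median was 0.61. They were CBX5 (1.18), FAM208A (1.28), SMARCAD1 (1.05) and ATF7IP (1.00). Centring each library moved every EZH2i change by −0.22, so CBX5, SMARCAD1 and ATF7IP were not past fold 2 with it. The median GC content of the 19 transcripts was 46.3%, and its part in these rises was not tested. Of all expressed genes under 45% GC, 18.6% rose past fold 2 in EZH2i, and of those from 45% to 60%, 4.56%. The 21 ZBTB genes, another C2H2 family, had a CDK2i median of −0.44 and an EZH2i median of 0.04. Past fold 2 lower were 3 in CDK2i (14.3%, against 7.38% of all expressed genes) and 0 in EZH2i (against 3.96%). The CDK2i median of the ZBTB genes was near that of the members.

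Dinaciclib inhibits CDK9 as well as CDK2, and CDK9 releases paused RNA polymerase II. Of 24 genes for transcriptional CDKs and pause release, 0 rose and 3 (12.5%, against 7.38% of all expressed genes) fell past fold 2 in CDK2i, with a median of −0.42. HEXIM1 changed from 4.74 in vehicle to 2.59 in CDK2i, MEPCE from 5.26 to 3.25 and HEXIM2 from 2.41 to 1.20. All 3 are known from the small nuclear RNA complex that holds CDK9 inactive, whose core member LARP7 had a CDK2i change of −0.41, not past fold 2. In EZH2i 2 of the 24 rose past fold 2 (8.33%, against 8.47% of all expressed genes), CCNT1 (1.15) and CCNT2 (1.26), the cyclins of CDK9. Of 21 expressed genes on a fixed list of short-lived mRNAs, 15 rose past fold 2 in CDK2i (71.4%, against 2.37% of all expressed genes). BCL6 alone fell past it. The median of the list was 1.38, beside −0.50 for the members. The list includes immediate early genes such as FOS, JUN and EGR1, and no mRNA lifetime was measured. Whether mRNA lifetime has a part in the changes of the list or of the members was not tested. JUNB, an immediate early transcription factor, was at 6.97, 10.51 and 6.49. The 15 long-lived mRNAs had a median of 0.48 and 0 past fold 2. Ribosomal protein genes had a CDK2i median of −0.88, with 30 of 83 (36.1%, against 7.38% of all expressed genes) past fold 2 lower. Their EZH2i median was −1.02, with 47 (56.6%, against 3.96%) past fold 2 lower. The sign of the CDK2i median of the 19 corepressor genes changed with the scaling, and those of the pause release, short-lived, long-lived and ribosomal protein lists did not.

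Epithelial genes led the marker lists, and those of other cell types were at low levels with a few exceptions. The tumor cells were human, the host was a mouse and hg19 was the reference. The sums of the other cell types therefore do not measure the cells of the host, and which cells gave these reads was not tested. All 8 epithelial markers were above log2 FPKM 1 in each tumor. Summed FPKM in vehicle, CDK2i and EZH2i was 8.43, 8.15 and 3.59 for 7 macrophage markers, of which only CD14 was above the level, 24.5, 38.4 and 28.9 for 7 fibroblast markers, and 33.2, 19.3 and 3.5 for the 3 adipocyte markers listed. Most of the fibroblast sum came from COL1A1 (3.70, 4.65, 4.01 on the log2 scale) and LUM, and most of the adipocyte sum from FABP4 (5.03, 4.22, 1.60). The 4 endothelial markers listed summed to at most 0.927. Of the macrophage markers, CD68 and AIF1 were listed at −9 in CDK2i and EZH2i. Proliferation markers summed to 187, 176 and 324, and all 6 were higher in EZH2i than in vehicle. Their part in the changes of the zinc finger genes was not tested.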

How the data were processed

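RNA was extracted with the RNeasy kit and sequenced at Novogene. The submitters' processing notes name CASAVA, STAR and hg19, without versions. The authors deposited log2 FPKM for 29689 genes in 3 libraries, with −9 for an FPKM of 0. The counting tool, its use of strand and the gene lengths are not given in the sources used here. Groups followed the sample labels.

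Changes are differences of the deposited log2 values. No pseudocount was added, and a change above fold 2 was called. The study's limma test was not run, since each group has 1 library. Members and lists were chosen with earlier results of these data known. Genes named were the 8 largest rises and falls in each comparison with vehicle, the 8 highest mean levels, members of a fixed list of 36 known genes, the 3 nearest the threshold on each side, and list genes past fold 2. Cluster members, overlapping pairs, genes outside the rule and ZNF577 were named after their values were seen.

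GC content, lengths, proteins and coordinates came from GENCODE 44 on GRCh37, with 1 coding transcript a gene, and promoters from RefSeq on GRCh38.p14. Of the member symbols, 114 matched as listed and 3 through RefSeq synonyms. Calculations used Python 3.11.15, numpy 2.4.6, pandas 2.3.3 and scipy 1.17.1, and were tested on simulated data. Alternatives were the scaling, pseudocount, level, fold, expression minimum and a GC and length correction. Choosing members on the tumor outside a comparison, and leaving out those that share sequence, were added after the data were seen.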

Additional observations from a re-analysis of the deposited data

How the results depend on the processing

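No paired analysis was possible because each group has 1 library, and for the same reason no replicate could be left out. Of 133 values under alternatives, 64 stayed near the main value (a median within 0.1, a count within 1.5 times) and 69 did not. Several EZH2i medians near 0 changed sign, as the values show. The cause of each move was not tested unless the alternative itself changes the genes or the limit.

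With each library centred on its median expressed gene, the median and the counts past fold 2 higher and lower were −0.33 in CDK2i, −0.19, 2 and 8 in EZH2i, and 0.20, 22 and 9 for EZH2i against CDK2i. The CDK2i medians were then −0.51 and −0.30 with and without a KRAB motif and −0.38 and −0.33 on and off chromosome 19, and the EZH2i medians −0.12, −0.23, −0.41 and −0.14. Equal summed FPKM gave −0.35 in CDK2i and 0.27, 18 and 0 in EZH2i. Without ribosomal protein and mitochondrially encoded genes in the sums, the CDK2i median was −0.65 with 0 higher (against 1.64% of all expressed genes), and the EZH2i against CDK2i median 0.77. With the GC and length trend removed, the EZH2i median was −0.13 with 0 higher (−0.23 with a KRAB motif, −0.09 off chromosome 19), and EZH2i against CDK2i gave 0.41 with 21 higher. Of the annotated genes 1.97% and 7.05% were then past fold 2 higher in these comparisons. A pseudocount of 1 gave 1 higher in CDK2i, 2 higher in EZH2i and a median of 0.48 for EZH2i against CDK2i.

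A mean above log2 FPKM 1 as the rule (187 genes) gave −0.76 with 67 lower in CDK2i, 0.16 with 11 higher in EZH2i, and 1.04 with 96 higher for EZH2i against CDK2i. The shares of all genes that met it were 10.9%, 10.2% and 21.6% in that order. A level of 2 (62 genes) gave −0.33 with 9 lower, 2 higher and 1 lower, and 0.24 with 15 higher. The shares of all genes at that level were 5.02%, 6.06%, 3.71% and 11.4%. A level of 0 (198 genes) gave −0.70 with 64 lower, 0.13 with 12 higher, and 0.97 with 96 higher, beside shares of 9.99%, 10.1% and 21% of all genes. Chosen on the tumor outside the comparison, the values were −0.88 with 103 lower in CDK2i and 1.14 with 118 higher for EZH2i against CDK2i. Of all genes chosen in this way, 13.3% and 22.3% were past fold 2 in these directions. The 82 members that share little sequence gave 1 lower in EZH2i, and 0.70 with 2 lower for EZH2i against CDK2i. A fold above 1.5 gave 4 higher and 53 lower in CDK2i, 26 and 17 in EZH2i, and 10 lower for EZH2i against CDK2i, and a fold above 3 gave 0 and 7, 1 and 0, and 13 and 1. Shares over all genes were not computed for these folds, the pseudocounts or the members that share little sequence. With the higher value above log2 FPKM 3, 15 of 55 were lower in CDK2i and 1 of 66 in EZH2i.

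The direction of the CDK2i median held under every alternative, and that of the EZH2i median did not. With 1 tumor a group, no alternative measures the spread between tumors, and members at the lowest levels rest on about 50 fragments.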
